A study of Oryza sativa with 4 samples.

Results

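The protein phosphatase 2C (PP2C) genes of rice were examined in the leaves of young plants exposed to 30% CO2. Members were the genes whose symbol or synonym, with any Os prefix removed, is PP2C followed by a number. The gene table held 60 such genes, and 55 of the 17905 genes with an assigned probe set on the array belong to them. The other 5, PP2C41, PP2C49, PP2C50, PP2C65 and PP2C77, were not analysed here. Where a gene had several probe sets, the one brightest on average across the 4 samples stood for it, so measured signal chose the probe set, while the names chose the genes. The family was singled out with earlier results of the same comparison known, so its counts are a description.

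The samples were leaves of Oryza sativa cultivar Senia at the second vegetative (V2) stage, taken after 6 h of darkness at 27 ± 2 °C. For treatment, plants were sealed in bags and CO2 was injected up to 30%, whereas controls remained in ordinary air with a labelled CO2 level of 0.04%. The time in the labels is 6 h for both groups, with a cycle of 16 h light and 8 h dark. The labels do not say whether controls were bagged. There were 2 biological replicates a group, and leaves of 10 plants were pooled for each. RNA was hybridised to Affymetrix rice arrays, and values are log2 signals per probe set.

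PP2C enzymes are metal-dependent phosphatases that remove phosphate from serine and threonine residues, and plants carry a large family of them. The best known are those of clade A, which bind and inhibit SnRK2 kinases (called SAPK in rice) until the hormone abscisic acid, bound by its PYL receptors, draws the phosphatase away. In leaves this switch is known for closing stomata and for drought responses. Other clades are known in Arabidopsis for acting on MAP kinases, on plasma membrane proton pumps and on receptor kinases. For most numbered rice PP2C genes no individual role is given below, since they are known mainly as family members.

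The median log2 signal of a sample, over 57194 probe sets, was 3.85 to 3.92. The CO2 replicates correlated with each other at r = 0.989 (Pearson) and the controls at 0.993, over probe sets, which are not independent replicates. The tissue label was checked against leaf markers. RBCS, for the small subunit of Rubisco, stood at 13.63 and 13.64 under CO2 and at 13.65 and 13.64 in controls, near the highest signals on the arrays. Of 10 leaf mesophyll markers measured, 1 rose and 4 fell (50% called, against 31.2% of all genes). The fallen markers were an FNR gene (LOC4342399, a log2 fold change of -1.35), RCABP89 (-1.33), PSAH (-0.84) and RCABP69 (-0.72), and PSB28 was higher by 1.06. The other FNR genes of the list, LFNR1 (-0.55) and LOC4334338 (0.07), did not pass. Markers were taken by name, and which FNR genes are specific to leaves was not tested. The silicon transporter genes LSI1 and LSI2 served as root markers. LSI1 was above the sample medians, with 6.64 and 7.03 under CO2 and 6.41 and 6.61 in controls, whereas LSI2 stood at 2.55 and 2.63 under CO2 and at 2.52 and 2.62 in controls. Neither passed the test. None of the listed guard cell markers was measured under its name. In these bulk leaves, fewer cells of a type and less RNA per cell cannot be told apart.

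More PP2C genes were higher than lower under 30% CO2. In limma's test over all 17905 genes, 14 of the 55 members rose at an adjusted p under 0.05, 2 fell and 39 did not pass. Called members made up 29.1% of the family, against 31.2% of all genes, so that the share of changed genes was near the background. The split differed from it. Risen genes were 25.5% of the family and 12.4% of all genes, and fallen genes were 3.64% of the family and 18.8% of all genes, a difference that was not tested. The median log2 fold change was 0.11 in the family and -0.08 over all genes, and the median size of change was 0.42 in the family and 0.39 over all genes.

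The samples themselves were also compared, on the same values as the test, so these counts are not separate support. The groups did not overlap for 34 members (61.8%, against 67.5% of all genes). Both CO2 samples lay above both controls for 23 members (41.8%, against 27.7% of all genes) and below both for 11 members (20.0%, against 39.8%). All 16 called members were free of overlap. A change of at least 2-fold past the threshold was seen in 6 risen and 2 fallen members (14.5% of the family, against 16.8% of all genes). The counts depended on the replicates, in the family as over all genes. Leaving out CO2 replicate 1, the split of the full fit was not kept among the called members. Those calls rest on CO2 replicate 2 alone, with the spread taken from the controls, so their shares are not set against all genes. The median log2 fold change was then 0.14 in the family and -0.04 over all genes. Leaving out CO2 replicate 2, the medians were 0.16 in the family and -0.12 over all genes. Without control replicate 1 or control replicate 2 the calls were lost, in the family as over all genes. The median log2 fold change was then 0.18 and 0.10 in the family, against -0.07 and -0.10 over all genes.

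**Figure D1:**
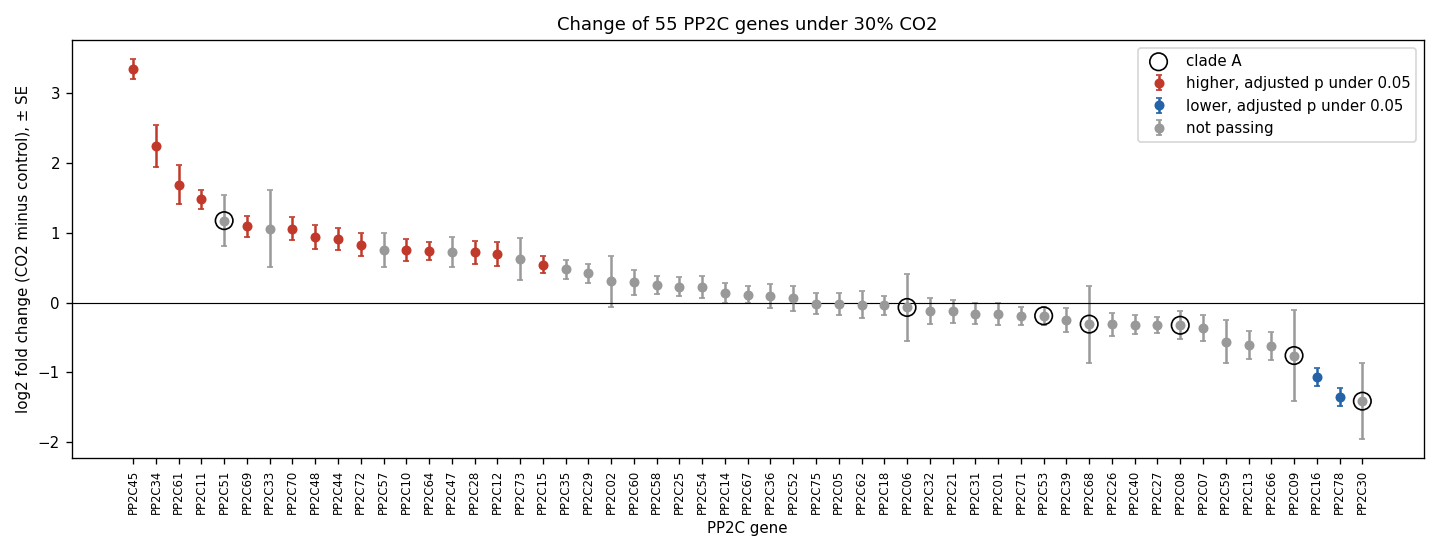
Log2 fold change (30% CO2 minus control; bars are standard errors from limma, n = 2 each) of the 55 measured PP2C genes in order of size. The 14 genes past the threshold on the higher side and the 2 on the lower side are coloured, and the 7 clade A genes, circled, all lie among those that did not pass.

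PP2C45 (LOC4337276) had the largest change of the family on its representative probe set. The signal was 12.10 and 12.11 under 30% CO2, against 8.89 and 8.62 in controls. The CO2 samples differed by far less than the gap to the controls. The mean was 12.10 ± 0.01 under CO2 and 8.76 ± 0.19 in controls (SD, n = 2 each), a 10.2-fold rise (log2 fold change 3.35 ± 0.14, SE; limma adjusted p = 0.00177). The second probe set annotated to PP2C45 gave another result, with 10.12 and 10.15 under CO2 and 10.27 and 10.30 in controls (log2 fold change -0.15 ± 0.12). In controls alone that second set was the brighter one, so that a choice by control mean would have put PP2C45 at -0.15 (limma adjusted p = 0.379), and the mean of both sets gave 1.60 (limma adjusted p = 0.00533). The rise thus holds for the first set and not for the second. Whether both sets measure PP2C45 was not tested, since probe sequences were not used here.

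PP2C34 (LOC4334191) is also named BIPP2C2, after its induction by benzothiadiazole, a chemical that primes plant defence. Its signal was 10.14 and 9.37 under 30% CO2, against 7.72 and 7.30 in controls. Both CO2 samples were higher, replicate 1 more so. The mean was 9.75 ± 0.54 under CO2 and 7.51 ± 0.29 in controls (SD, n = 2 each), a 4.75-fold rise (log2 fold change 2.25 ± 0.30, SE; limma adjusted p = 0.00817).

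PP2C61 (LOC4342246) gave 9.88 and 9.26 under CO2 and 7.64 and 8.13 in controls. The replicates were spread in both groups without meeting. The rise was 3.22-fold (log2 fold change 1.69 ± 0.28, SE; limma adjusted p = 0.0135) and did not pass without CO2 replicate 1, where the log2 fold change was 1.38. PP2C11 (LOC4328505) gave 10.70 and 10.53 under CO2 and 9.20 and 9.06 in controls. Its replicates lay close together in both groups, and the gene rose 2.79-fold (log2 fold change 1.48 ± 0.14, SE; limma adjusted p = 0.00381).

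PP2C69 (LOC4347278) and PP2C70 (LOC4347831) completed the rises of at least 2-fold. PP2C69 gave 4.64 and 4.92 under CO2 and 3.69 and 3.68 in controls, a 2.13-fold rise (limma adjusted p = 0.00814) in a dim probe set, whose control signal lay just below the sample medians. PP2C70 gave 9.73 and 9.60 under CO2 and 8.44 and 8.78 in controls, a 2.08-fold rise (limma adjusted p = 0.0113). The call of PP2C70 was lost without CO2 replicate 1 (log2 fold change 0.99) and without CO2 replicate 2 (1.12), while that of PP2C69 was kept in both cases.

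The other 8 risen members changed by less than 2-fold. PP2C48 rose by 0.94 on the log2 scale, PP2C44 by 0.91, PP2C72 by 0.83, PP2C10 by 0.75, PP2C64 by 0.74, PP2C28 by 0.72, PP2C12 by 0.70 and PP2C15 by 0.54, with limma adjusted p-values between 0.0146 for PP2C64 and 0.0367 for PP2C12. PP2C44 gave 10.23 and 9.91 under CO2 and 9.11 and 9.23 in controls, so that its groups stood apart while its CO2 replicates differed. PP2C15, the smallest rise, gave 6.94 and 7.10 under CO2 and 6.48 and 6.46 in controls. None of these 8 passed without CO2 replicate 1, where their log2 fold changes ran from 0.60 for PP2C10 to 1.01 for PP2C48, and PP2C48, PP2C28, PP2C12 and PP2C15 did not pass without CO2 replicate 2 either. The only probe set of PP2C12 is of the _s_at type, which may also bind transcripts of other genes.

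**Figure D2:**
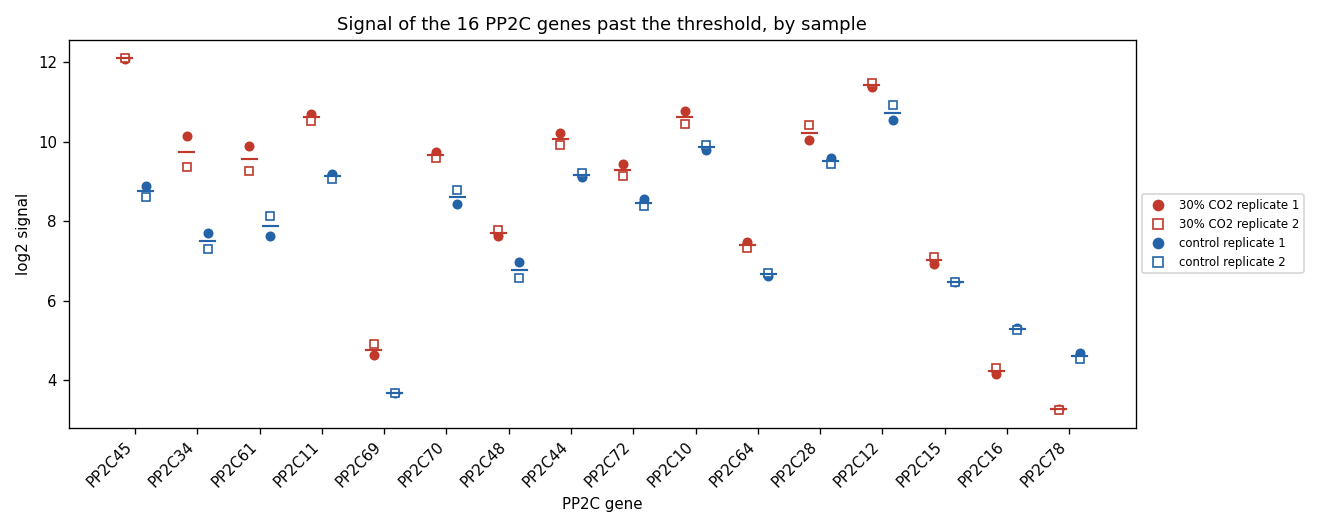
Log2 signal in each sample for the 16 PP2C genes past the threshold, with 30% CO2 to the left of control for each gene and a bar at each group's mean. The groups do not meet for any of these genes; PP2C45 shows the widest gap (12.10 and 12.11 under CO2, against 8.89 and 8.62 in controls), and only PP2C16 and PP2C78 were lower under CO2.

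PP2C78 (LOC4352638) and PP2C16 (LOC107276004) were the fallen members. PP2C78 gave 3.29 and 3.26 under CO2 and 4.70 and 4.55 in controls. The replicates agreed closely in both groups, and the CO2 signal lay below the sample medians, so that the exact size of the fall is uncertain. The log2 fold change was -1.35 ± 0.13 (SE; limma adjusted p = 0.00389), or 2.55-fold lower. PP2C16 gave 4.16 and 4.30 under CO2 and 5.33 and 5.28 in controls, with a log2 fold change of -1.07 ± 0.12 (SE; limma adjusted p = 0.00588). Both calls were kept without either CO2 replicate. PP2C16 lies near PP2C18 in the gene table, with 3 coding genes between them on chromosome 2, and PP2C18 did not pass (4.03 and 4.09 under CO2, against 3.996 and 4.21 in controls, log2 fold change -0.04). No other pair of members lay as close.

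The clade A genes, the co-receptors of abscisic acid, were taken as PP2C06, PP2C08, PP2C09, PP2C30, PP2C37, PP2C49, PP2C50, PP2C51, PP2C53 and PP2C68, of which 7 were measured. In limma's test 0 of the 7 passed in either direction, and 1 had an unadjusted p under 0.05. Over all genes 31.2% passed and 43.9% had an unadjusted p under 0.05. Their median log2 fold change was -0.31, with 1 member above 0 and 6 below. With a trended and robust variance model 1 passed, PP2C51, which was higher.

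PP2C30 (LOC4332374), whose product is known in rice to bind a PYL receptor and the kinase SAPK2, gave 5.64 and 4.02 under CO2 and 6.43 and 6.06 in controls. Both CO2 samples were lower, but they differed from each other by more than the distance of replicate 1 to the controls (log2 fold change -1.41 ± 0.55, SE; limma adjusted p = 0.114). PP2C09 (LOC4327465) gave 7.91 and 5.91 under CO2 and 7.76 and 7.59 in controls, so that CO2 replicate 1 lay above the controls and replicate 2 below them (log2 fold change -0.76 ± 0.65, SE; limma adjusted p = 0.426). Without CO2 replicate 1 both passed, PP2C30 at -2.22 and PP2C09 at -1.76 on the log2 scale (limma adjusted p = 0.0398 and 0.0386). These calls rest on CO2 replicate 2 alone, with the spread taken from the controls.

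PP2C51 (LOC4339671), known in rice for promoting seed germination, was the clade A member above 0. It gave 5.22 and 4.20 under CO2 and 3.36 and 3.71 in controls (log2 fold change 1.17 ± 0.37, SE; limma adjusted p = 0.0691). The groups did not overlap. Without CO2 replicate 1 the log2 fold change was 0.66 (limma adjusted p = 0.149), and without CO2 replicate 2 it was 1.69 and passed (limma adjusted p = 0.0324). In each of these fits the controls alone give the gene's own spread. Its other probe set was dim in all samples and gave 0.05.

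PP2C68, also named SIPP2C1 and known as a stress-induced gene, gave 6.01 and 4.44 under CO2 and 5.83 and 5.24 in controls. PP2C06, also named ABIL1, gave 7.94 and 6.65 under CO2 and 7.70 and 7.03 in controls. In both genes the CO2 samples enclosed the controls, and the log2 fold changes were -0.31 ± 0.55 for PP2C68 and -0.07 ± 0.48 for PP2C06 (SE). PP2C53, also named ABIL2, gave 6.74 and 6.91 under CO2 and 6.9999 and 7.03 in controls, and PP2C08 gave 4.31 and 4.13 under CO2 and 4.78 and 4.31 in controls. These last genes moved little, with log2 fold changes of -0.19 ± 0.13 and -0.33 ± 0.20 (SE).

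**Figure D3:**
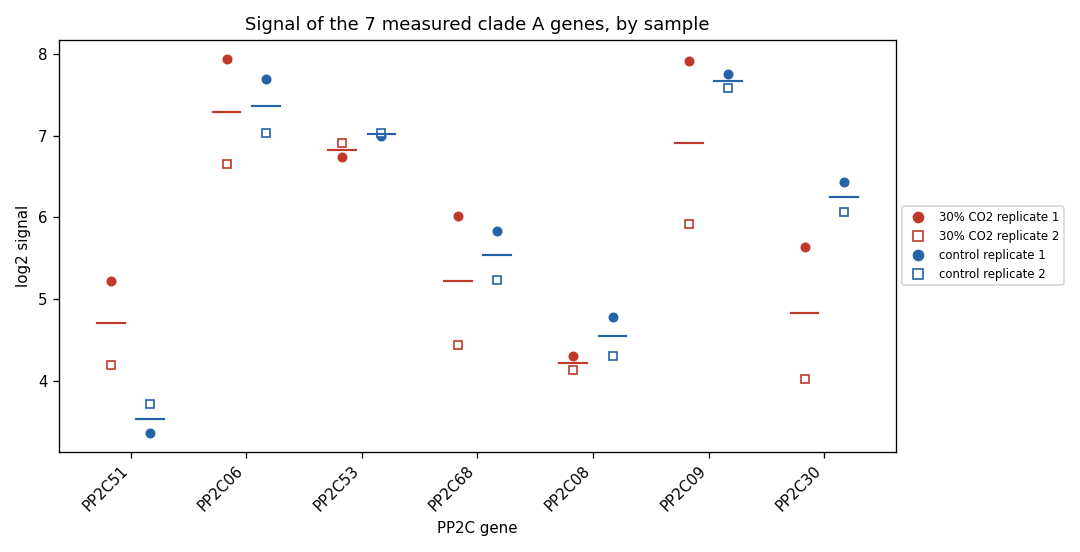
Log2 signal of the 7 measured clade A genes in each sample, with 30% CO2 to the left of control and a bar at each group's mean. The CO2 replicates lie far apart for PP2C09 (7.91 and 5.91), PP2C30 (5.64 and 4.02), PP2C68 (6.01 and 4.44) and PP2C06 (7.94 and 6.65), with replicate 1 the higher each time.

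The CO2 replicates lay further apart for most clade A genes than for the other members. Over 2-fold lay between the CO2 replicates for 6 members, a line drawn after the values were seen, and 5 of these 6 were among the 7 clade A genes. They were PP2C09 (a difference, replicate 1 minus replicate 2, of 2.00 on the log2 scale), PP2C30 (1.62), PP2C68 (1.57), PP2C06 (1.29) and PP2C51 (1.02). PP2C02, at 1.07, was the only one among the 48 other members. Replicate 1 was the higher in all 6, and over all genes 4.45% had CO2 replicates over 2-fold apart. The median distance between CO2 replicates was 1.29 for clade A, 0.22 for the other members and 0.23 over all genes. Between controls it was 0.37 for clade A, 0.15 for the other members and 0.17 over all genes, and replicate 1 was the higher control in 5 of 7 clade A genes. The difference between clade A and the rest was not tested.

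**Figure D4:**
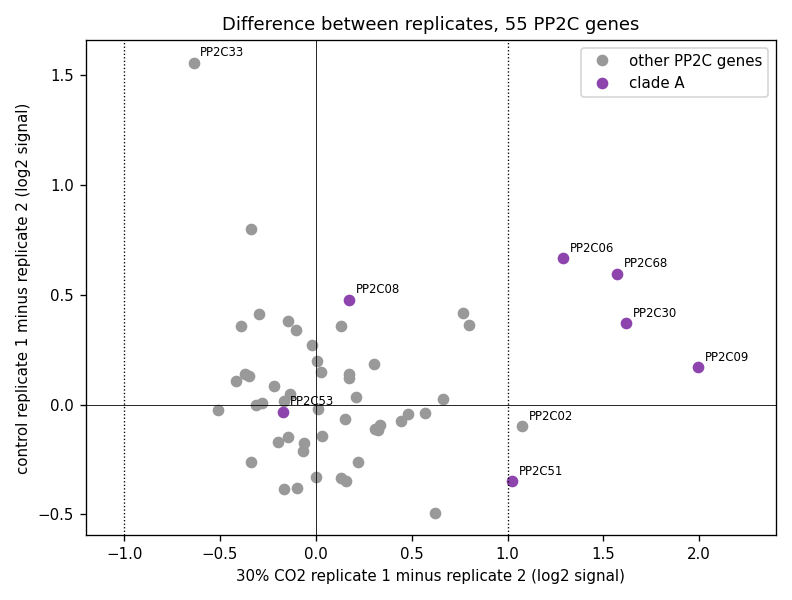
Difference between replicate 1 and replicate 2 on the log2 scale for 55 PP2C genes, under 30% CO2 (horizontal) and in controls (vertical), with dotted lines at a 2-fold difference under CO2. PP2C09, PP2C30, PP2C68, PP2C06 and PP2C51 of clade A and PP2C02 lie right of the line, and PP2C33 has the widest gap between controls (1.56).

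Among the 14 risen members CO2 replicate 1 lay further from the control mean than replicate 2 in 8, and among the 2 fallen members in 1. Over all called genes the share was 67.9%.

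Beyond the called and the clade A genes, 32 members did not pass. Their log2 fold changes ran from -0.62 to 1.06, with 15 above 0 and 17 below, and 25 lay within 0.5 of 0. PP2C33 had the largest of them, at 1.06 ± 0.55 (SE), with 6.21 and 6.84 under CO2 and 6.24 and 4.69 in controls, so that its groups overlapped. The brightest probe sets of the family belonged to PP2C12, PP2C45 and PP2C14, and the dimmest to PP2C31, PP2C78 and PP2C18, although signals of different probe sets do not rank transcripts. PP2C14 gave 10.28 and 10.48 under CO2 and 10.16 and 10.34 in controls, and PP2C31 gave 2.46 and 2.46 under CO2 and 2.46 and 2.79 in controls. Neither passed, and the signal of PP2C31 was below the sample medians in all samples.

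A few members with a known role were looked up after their values had been seen. PP2C35, also named XB15, encodes a phosphatase known in rice to act on the immune receptor XA21. It came nearest to the threshold, with 7.68 and 7.51 under CO2 and 7.18 and 7.06 in controls (log2 fold change 0.48 ± 0.13, SE; limma adjusted p = 0.0531). PP2C27, known in rice for a part in cold signalling, gave 8.49 and 8.48 under CO2 and 8.80 and 8.82 in controls, a small and steady difference that did not pass (log2 fold change -0.32 ± 0.12, SE; limma adjusted p = 0.0959). PP2C13, also named DCW11, was known first from work on pollen and male sterility. It gave 5.99 and 6.38 under CO2 and 6.98 and 6.62 in controls (log2 fold change -0.61 ± 0.21, SE; limma adjusted p = 0.0828).

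Over 1 probe set was available for 12 members, 29 sets in all. The sets had 1 sign for 7 of these members and both signs for 5, and for 0 members were sets called in opposite directions. PP2C47 gave the same change on both sets (log2 fold change 0.73), and PP2C07, PP2C39 and PP2C71 were below 0 on both. PP2C75 differed among its sets. The representative one gave -0.01, another -0.65 (4.88 and 5.11 under CO2, against 5.63 and 5.66 in controls; just inside limma's threshold over all probe sets) and the last, which was dim, 0.48. Chosen by control mean, PP2C75 would have counted as lower (limma adjusted p = 0.0256). PP2C48 was called on the representative set only, and as the mean of its 3 sets it did not pass (log2 fold change 0.50, limma adjusted p = 0.0737).

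**Figure D5:**
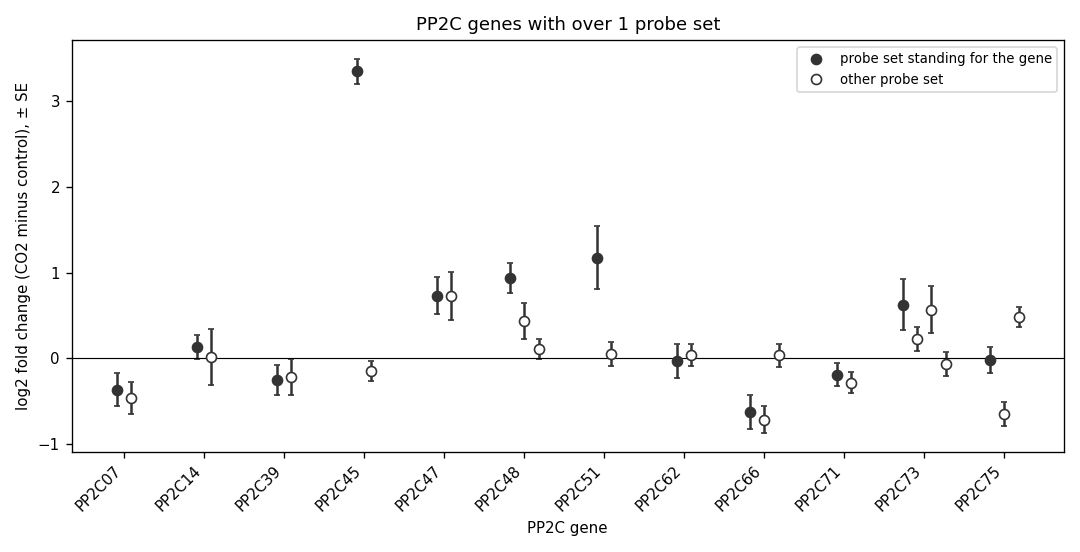
Log2 fold change (30% CO2 minus control; bars are standard errors from limma) of each of the 29 probe sets of the 12 PP2C genes that have over 1, with the representative set filled. The sets of PP2C45 lie at 3.35 and -0.15, while those of PP2C47 coincide at 0.73.

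The partners of PP2C enzymes were counted in the same fit (31.2% of all genes called). PYL11 (LOC4338104), whose record also carries the names PYL5 and RCAR5, was the receptor gene measured under such a name, and it gave 9.44 and 9.48 under CO2 and 9.71 and 9.89 in controls (log2 fold change -0.34 ± 0.13, SE; limma adjusted p = 0.112). Of the 10 SAPK kinases, 3 rose and 1 fell (30% and 10%, against 12.4% and 18.8% of all genes). SAPK9, one of the kinases activated by abscisic acid, stood at 4.71 and 4.91 under CO2 and at 7.48 and 7.29 in controls. Its only probe set is of the _s_at type, which may also bind transcripts of other genes. Without _s_at and _x_at sets, 3 of 9 SAPK genes passed as higher and 0 as lower, against 12.1% and 18.4% of all genes. SAPK2 and SAPK6 rose by 0.91 and 0.81. Without CO2 replicate 1 the SAPK counts were 1 higher and 2 lower, and without CO2 replicate 2 they were 2 and 1, in fits that called 922 higher and 1308 lower and 1701 higher and 2868 lower genes over all. Of the transcription factors that these kinases act on, ABF2 (also named BZIP23) and TRAB1 were measured and did not pass. ABF2 had 9.04 and 8.18 under CO2 and 8.29 and 7.82 in controls.

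Among the 15 MAP kinase genes, 1 rose and 3 fell (6.67% and 20%, against 12.4% and 18.8% of all genes). MPK13 fell by 0.82, the gene LOC4328297, named MPK3 and MAP3, fell by 0.69 and MPK7 fell by 0.56 on the log2 scale. Another gene listed as MPK3, LOC4332475, gave 8.16 and 7.75 under CO2 and 7.64 and 7.28 in controls. It did not pass (log2 fold change 0.49 ± 0.21, SE, limma adjusted p = 0.139). Of 6 genes for other phosphatases, 3 rose and 0 fell (50% and 0%, against 12.4% and 18.8% of all genes). These were the PP2A genes PP2A1, PP2A2 and PP2A4, whose products are catalytic subunits of protein phosphatase 2A, a separate family. PP2A1 gave 9.87 and 9.92 under CO2 and 8.01 and 8.10 in controls (log2 fold change 1.84 ± 0.12, SE; limma adjusted p = 0.0025), PP2A2 rose by 0.88 and PP2A4 by 0.57. PP2A3 stood at 0.10 on a probe set of the _x_at type and did not pass. Without _s_at and _x_at sets 4 of the 6 genes passed as higher (against 12.1% of all genes), PP2A3 among them on its other set. BSL1 and BSL2, relatives of a phosphatase known from brassinosteroid signalling in Arabidopsis, stood at -0.05 and -0.45 and did not pass. Without CO2 replicate 1, 1 MAP kinase gene was higher and 0 lower and 1 other phosphatase gene was higher, and without CO2 replicate 2 these counts were 0, 3 and 2, in the same fits as for the SAPK genes.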

How the data were processed

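Leaf RNA of 4 samples was measured on Affymetrix rice arrays. The table holds log2 signals, 1 per probe set and sample, that the authors made with RMA, per the submitters' processing notes, which also name limma and give no versions. Replicates were not pooled and no rescaling was applied. Probe sets were named through the platform annotation and a rice gene table (ASM3414082v1, names and gene order only). Of 57194 probe sets, 22436 had 1 gene, 95 several and 34663 are unnamed here. All 17905 genes matched the table.

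CO2 and control were compared by limma (version 3.58.1, R 4.3.3) with lmFit and eBayes over all probe sets, two-sided, without block or filter, with Benjamini-Hochberg adjustment over 1 probe set for each of the 17905 genes and a threshold of 0.05. There were 2 residual degrees of freedom, to which the prior contributed 2.85. Adjusted p-values for extra probe sets are over all probe sets.

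The members and lists were chosen with earlier results of these data known. Named are all members past the threshold, clade A, the 3 brightest and 3 dimmest members and up to 3 called genes of each other list; exceptions are stated. The clade A list comes from general knowledge. Leaf, root, dividing-cell and seed markers were checked: 1 of 7 dividing-cell genes fell and no root (2) or seed (1) gene passed. Alternatives were quantile normalization, median centring, a filter on dim probe sets, a trended and robust variance model, the replicate block, each sample left out, the mean of probe sets and sets without _s_at and _x_at; a crossed block and a choice by control mean were added after seeing the data. The same-numbered samples deviated with r = -0.10, so the numbers are not taken as pairs. The planned look at promoter motifs and protein identity was not run, since no sequences were used here. The number of arrays limits the precision, and signal over background is unknown.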

Additional observations from a re-analysis of the deposited data

How the results depend on the processing

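All 16 called members kept their direction under each alternative in which they were tested, except that the choice of each gene's probe set by control mean, added after seeing the data, turned PP2C45 to -0.1494. That choice gave 13 higher and 3 lower members (23.6% and 5.45%, against 12.3% and 19.0% of all genes). The replicate block kept 9 of the 16 calls. Counts of 14 higher and 2 lower members became 7 and 2 with it (12.7% and 3.64%, against 8.25% and 12.2% of all genes). With the crossed pairing they became 12 and 3 (21.8% and 5.45%, against 10.3% and 16.1% of all genes). That pairing was added after the deviations of same-numbered samples were seen to have a weak negative correlation (r = -0.10). Leaving out single samples gave 0 to 13 higher and 0 to 4 lower members, 0 to 1 higher and 0 to 2 lower clade A genes, and 0 to 1701 higher and 0 to 2868 lower genes over all. With the replicate block 1478 genes were higher and 2188 lower over all, against 2218 and 3369. For clade A, 1 gene was higher with the trended and robust model and 1 with the crossed block, against 0. As the mean of probe sets 11 higher and 2 lower members passed (20.0% and 3.64%, against 10.1% and 15.1% of all genes). Without _s_at and _x_at sets 13 and 2 of 53 passed (24.5% and 3.77%, against 12.1% and 18.4% of all genes). Fits without a control have 1 residual degree of freedom, that of the CO2 replicates. The median of all genes moved by 0.01 with quantile normalization and by -0.04 with median centring. Signal over background is unknown, so falls into dim signals may be understated.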
